A study of Mus musculus with 54 samples.

Results

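The BAF complex, the mammalian SWI/SNF chromatin remodeller, was followed through 10 genes that encode its alternative subunits, measured as RNA while R1 mouse embryonic stem cells differentiated in retinoic acid. The members were chosen by gene symbol: Actl6a, Actl6b, Dpf1, Dpf2, Dpf3, Phf10, Ss18, Ss18l1, Smarcc1 and Smarcc2. All 10 were among the 21960 genes of the deposited table, and all 10 passed the filter of 1 FPKM (fragments counted per length of transcript and per size of library) in at least 3 libraries that left 14982 genes to test. The cells, of the R1 line and with no genetic change named in the labels, were grown with LIF, aggregated in hanging drops for 48 h and kept in medium with, per the labels, 0.5 mM retinoic acid, a vitamin A derivative that steers such aggregates towards neural fates. Of the 22 RNA libraries, 7 were of day 0, 3 each of days 2 and 4, 5 of day 10 and 4 of day 20. The labels give no untreated culture at the later days, so time in culture and retinoic acid cannot be told apart. Nor do they tell if cultures were grown separately for each library, so the spread that p-values rest on may be technical.

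The BAF complex uses the energy of ATP to move nucleosomes and so opens or closes DNA to transcription factors. Several of its positions can be filled by either of 2 or more related proteins, and the choice marks the cell state. In stem cells and dividing neural progenitors the actin-like position holds ACTL6A (BAF53A), the double PHD finger position holds PHF10 (BAF45A) or DPF2 (BAF45D), and SS18 is present. When neural progenitors leave the cell cycle these are known to be replaced by ACTL6B (BAF53B), DPF1 (BAF45B) or DPF3 (BAF45C), and SS18L1 (CREST), which together define the neuronal complex needed for dendrite growth. The core scaffold is also known to change: the complex of embryonic stem cells is rich in SMARCC1 (BAF155), and SMARCC2 (BAF170) joins it as cells differentiate. ACTL6B is kept off outside the nervous system in part by REST, a repressor that binds a DNA element called RE1.

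Promoter windows of RefSeq, build GRCm38.p6, are shown for the actin-like pair, whose exchange is the defining step, and for Ss18l1, whose RNA followed Actl6b most closely among the members. Each runs from 250 bases before the transcription start to 50 bases after it, on the strand of the gene. Capitals mark matches to the 2 arms of the RE1 element, TCAGCACC and GGACAG, searched on both strands; a match on the opposite strand reads as its reverse complement.
Actl6a, chr3:32708296-32708595, plus strand: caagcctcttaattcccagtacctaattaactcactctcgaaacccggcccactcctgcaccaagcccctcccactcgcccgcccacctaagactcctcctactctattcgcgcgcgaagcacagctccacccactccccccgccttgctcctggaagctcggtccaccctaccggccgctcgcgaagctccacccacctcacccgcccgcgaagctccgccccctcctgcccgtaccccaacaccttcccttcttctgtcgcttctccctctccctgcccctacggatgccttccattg
Actl6b, chr5:137553296-137553595, plus strand: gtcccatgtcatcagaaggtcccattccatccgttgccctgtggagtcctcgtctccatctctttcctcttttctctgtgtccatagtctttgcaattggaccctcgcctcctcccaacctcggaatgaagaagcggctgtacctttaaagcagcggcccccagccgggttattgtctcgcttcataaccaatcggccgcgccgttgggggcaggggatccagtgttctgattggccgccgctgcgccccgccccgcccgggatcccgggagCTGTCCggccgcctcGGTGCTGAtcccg
Ss18l1, chr2:180042233-180042532, plus strand: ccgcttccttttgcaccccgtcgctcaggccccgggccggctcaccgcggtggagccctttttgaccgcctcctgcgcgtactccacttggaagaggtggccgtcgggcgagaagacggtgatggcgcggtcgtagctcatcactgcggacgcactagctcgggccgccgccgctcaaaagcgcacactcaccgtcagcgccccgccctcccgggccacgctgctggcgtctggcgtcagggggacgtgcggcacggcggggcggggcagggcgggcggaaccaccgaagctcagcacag

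The Actl6b window held both arms on the strand opposite the gene, GGACAG at bases 23 to 28 and TCAGCACC at bases 38 to 45 after the start, with 9 bases between them. No other of the 9 member windows used held TCAGCACC, and GGACAG was also present, alone, in those of Dpf2 and Smarcc2. Among all 32851 windows of this length, 1.65% held TCAGCACC and 22.2% held GGACAG. Both in that order on 1 strand were held by 0.161% at any gap and by 0.07% with a gap of 9 bases or fewer. That limit equals the gap in the Actl6b window. The search of the member windows set no limit on the gap, and the gap of 9 bases was not compared with that of known RE1 elements. These letters were chosen with the expression values known, and a match describes the sequence and is not a measured binding site. The windows differed widely in base composition, from 55.3% G and C with 17 CpG in Dpf3 to 87.0% with 62 CpG in Phf10, and the Actl6b window had 61.7% with 23 CpG.

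The libraries carried the markers of their days. Library sums ran from 472122 to 678222 FPKM, and the number of reads behind them is unknown. Summed over 9 pluripotency markers, libraries stood at 4807 to 5119 FPKM at day 0 and 62.4 to 64.3 at day 4. The sum of 12 neuron markers was 126 to 166 FPKM in stem cells and 34.95 to 36.1 on day 2, then 2915 to 2931 on day 4, 1266 to 1319 on day 10 and 536 to 592 on day 20. The 10 cell cycle markers fell from 1628 to 1775 FPKM at day 0 through 643 to 661 at day 4 to 222 to 233 at day 10. At day 20 the cultures were mixed: 8 astrocyte markers summed to 2621 to 2833 FPKM, 7 oligodendrocyte markers to 1725 to 2663 and 10 markers of endoderm and epithelium to 5138 to 6067. Single genes carried much of each sum, with day-20 means of 1413 FPKM for Gfap, 1645 for Mbp and 3273.5 for Tff1. The means of Sox17, Foxa2, Gata4, Gata6 and Afp ran only from 6.66 to 67.9 FPKM. Stem-cell replicates 1 to 3 stood apart from replicates 4 to 7, a split that no label accounts for. The ranges of these 2 sets did not overlap for 9 of the 10 members, the exception being Actl6b, so comparisons with day 0 were repeated against each set alone. The share of all genes split in this way was not counted, so the split is not read as a trait of the members. In bulk RNA, fewer cells of a type and less RNA per cell cannot be told apart.

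The RNA of the actin-like pair shifted in part from Actl6a to Actl6b between days 2 and 10. Protein was not measured, so RNA levels and shares do not give the make-up of the complex. Actl6b, the neuronal form, was close to 0 through day 2, appeared by day 4 and fell again by day 20. At day 0 it was listed at 0 in 5 libraries, at 0.03 FPKM in replicate 2 and at 0.17 FPKM in replicate 1. At day 2 it stood at 0.24, 0.15 and 0.03 FPKM, which overlapped day 0, and the log2 change of 0.15 ± 0.08 (SE) was not called (adjusted p = 0.116). Changes here are differences in log2(FPKM + 1), which understates the change of low genes, and were called at an adjusted p under 0.05. With a smaller pseudocount the same difference was called (0.90 ± 0.27 with 0.1 FPKM added, adjusted p = 0.00497, and 2.67 ± 0.69 with 0.01, adjusted p = 0.00162), and so it was without day-2 replicate 3 (0.22 ± 0.09, adjusted p = 0.0435). At day 4 the libraries stood at 24.3, 22.7 and 24.6 FPKM, and at day 10 at 29.9, 28.0, 25.5, 27.4 and 29.7. Every library of these 2 days was far above every earlier one, and the rise from day 2 to day 4 was 4.45 ± 0.10 (adjusted p = 5.01e-20), or 6.75 ± 0.32 with 0.1 FPKM added. From day 4 to day 10 the change was 0.23 ± 0.09 (adjusted p = 0.025). That call was lost without day-4 replicate 2 (adjusted p = 0.101), without day-10 replicate 1 (0.055) and without day-10 replicate 5 (0.0533), as it was with either smaller pseudocount and with quantile normalization, and the change was 0.38 ± 0.08 with the same library sum. At day 20 the libraries stood at 7.52, 5.41, 5.70 and 5.40 FPKM, all below day 10 and above day 2 (-2.06 ± 0.08 from day 10, adjusted p = 9.18e-16).

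Actl6a, the form of stem cells and progenitors, fell at each step to day 10 and then stayed level. Its 7 day-0 libraries ran from 93.3 to 104 FPKM with a median of 97.6. At day 2 it stood at 81.6, 82.5 and 78.7 FPKM and at day 4 at 62.6, 57.6 and 57.7. At day 10 the libraries stood at 22.9, 22.2, 21.9, 22.4 and 22.6 FPKM and at day 20 at 22.2, 22.3, 23.6 and 21.4. No libraries of days 0, 2, 4 and 10 overlapped with those of another of these days, whereas those of days 10 and 20 did. The fall from day 4 to day 10, of -1.36 ± 0.04 (adjusted p = 3.33e-17), followed smaller ones of -0.28 ± 0.04 from day 0 to day 2 and -0.44 ± 0.05 from day 2 to day 4, the latter -0.15 ± 0.05 (adjusted p = 0.0144) with libraries rescaled to the same sum. Between days 10 and 20 the difference was -0.0037 ± 0.04 (adjusted p = 0.941), and -0.19 ± 0.04 (adjusted p = 0.000504) once each library was rescaled to the same sum.

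As a share of the summed FPKM of the pair, which is per unit of length and so allows the 2 genes to be set side by side, Actl6b made up 0.0275% ± 0.0609 (SD, n = 7) at day 0 and 0.171% ± 0.128 (n = 3) at day 2. It made up 28.7% ± 1.0 (n = 3) on day 4, 55.6% ± 1.20 (n = 5) on day 10 and 21.1% ± 2.82 (n = 4) at day 20. Day 10 was the only day on which Actl6b was above Actl6a, which it was in all 5 libraries. The pair summed to 98.9 ± 4.50 FPKM in stem cells, to 83.2 ± 3.39 on day 4, to 50.5 ± 2.16 on day 10 and to 28.4 ± 1.35 on day 20. The lower share of Actl6b at day 20 thus went with a lower level of Actl6b and a level Actl6a. The neuron markers also fell from day 10 to day 20, 11 of 12 called lower and 1 higher. Of 8 astrocyte markers, 6 were called higher and 2 lower, where 37.2% of all genes were called higher and 38.1% lower. The part of these cell types in the fall of Actl6b was not tested.

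**Figure D1:**
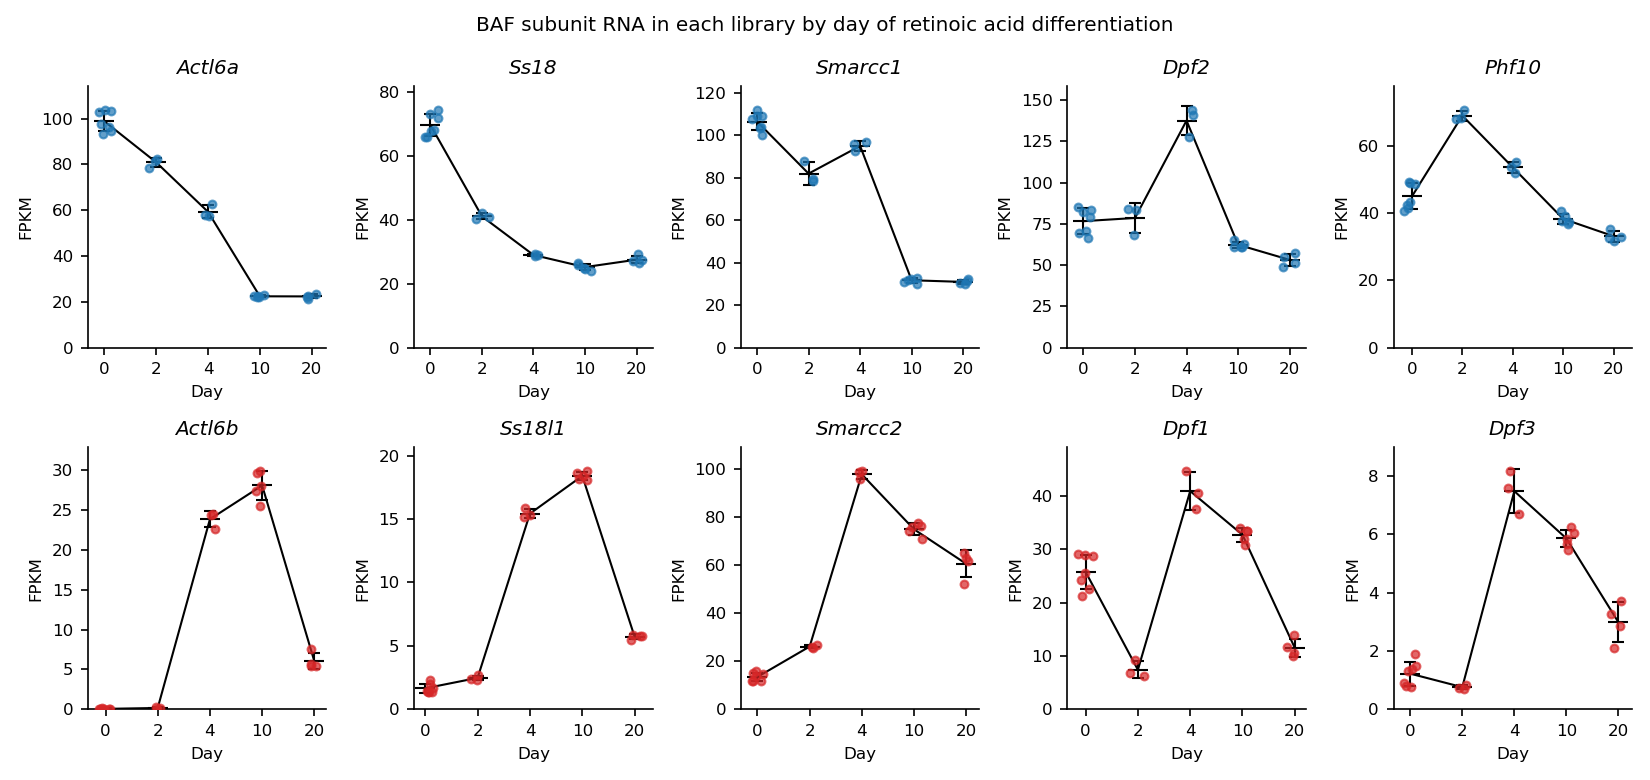
FPKM (y axis, from 0) of the 10 subunit genes in each of the 22 libraries (points), with the mean and SD of each day (black lines and bars), against day (x axis, categories not to scale). The blue genes are the subunits of stem cells and progenitors and the red ones those of neurons or differentiated cells. Actl6b stands at 22.7 to 24.6 FPKM at day 4 after 0.03 to 0.24 at day 2, and Actl6a falls from a median of 97.6 at day 0 to 21.9 to 22.9 at day 10.

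At the SS18 position Ss18 fell at each step to day 10 and Ss18l1 rose between days 2 and 4. Ss18, which encodes a subunit rich in glutamine that interacts with co-activators, had a day-0 range of 65.9 to 74.5 FPKM with a median of 68.2. At day 2 it stood at 40.8, 42.2 and 40.4 FPKM, and at day 4 at 28.8, 29.1 and 29.2. Its largest fall came first, -0.75 ± 0.04 from day 0 to day 2 (adjusted p = 9.85e-13), ahead of that of Actl6a. At day 10 the libraries stood at 24.1, 26.5, 24.7, 24.9 and 25.9 FPKM and at day 20 at 26.6, 27.3, 29.2 and 27.0. The step from day 4 to day 10 was -0.20 ± 0.05 (adjusted p = 0.000617), and -0.04 ± 0.05 (adjusted p = 0.518) with the same library sum. Days 4 and 20 overlapped (-0.07 ± 0.05, adjusted p = 0.163). The rise of 0.12 ± 0.04 from day 10 to day 20 (adjusted p = 0.0119) was not called without day-20 replicate 3 (0.10 ± 0.04, adjusted p = 0.0573) and turned to -0.06 ± 0.05 with libraries rescaled to the same sum.

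Ss18l1, the neuronal form and a calcium-responsive co-activator, was low but present in every day-0 library, from 1.33 to 2.31 FPKM with a median of 1.46. At day 2 it stood at 2.66, 2.40 and 2.32 FPKM, just above the highest day-0 library (0.40 ± 0.08, adjusted p = 0.000186), a difference that quantile normalization reduced to 0.09 ± 0.09 (adjusted p = 0.383). It then rose to 15.8, 15.1 and 15.3 FPKM at day 4 (2.25 ± 0.10 from day 2, adjusted p = 9.12e-15) and stood at 18.8, 18.2, 18.1, 18.4 and 18.6 at day 10. The last step, 0.24 ± 0.09 (adjusted p = 0.0188), was not called without day-4 replicate 2 (adjusted p = 0.0576) or day-4 replicate 3 (0.0509), nor with a smaller pseudocount, and was 0.40 ± 0.09 with the same library sum. At day 20 the libraries stood at 5.73, 5.86, 5.43 and 5.77 FPKM, below every library of days 4 and 10 (-1.53 ± 0.08 from day 10, adjusted p = 1.97e-13). Its share of the summed FPKM of Ss18 and Ss18l1 was 2.28% ± 0.397 on day 0, 34.7% ± 0.684 on day 4, 42.2% ± 1.11 on day 10 and 17.2% ± 0.992 on day 20. Unlike Actl6b, Ss18l1 was below its partner in all 22 libraries. As deposited, the sum of the 2 genes changed little from day 2 to day 10 (43.6 ± 0.960, 44.4 ± 0.222 and 43.6 ± 0.916 FPKM). Library sums, however, ran from 657674 to 678222 FPKM at day 2 and from 472122 to 494725 at day 10. The level sum of the pair thus depends on the scaling, and it was not computed with libraries rescaled to the same sum.

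The RNA of the SMARCC scaffold subunits, which hold the complex together, shifted in part from Smarcc1 to Smarcc2 by day 10. Smarcc2, encoding BAF170, had a day-0 range of 11.7 to 15.7 FPKM with a median of 13.8. It stood at 26.8, 25.9 and 25.6 FPKM at day 2 and at 99.2, 98.8 and 95.8 at day 4. It was called higher already at day 2 (0.92 ± 0.08, adjusted p = 8.37e-10), when Actl6b was still under 0.25 FPKM in every library, and rose by a further 1.87 ± 0.09 to day 4. At day 10 the libraries stood at 76.4, 74.4, 70.9, 77.6 and 75.8 FPKM and at day 20 at 61.9, 52.4, 65.1 and 63.1. Both later steps were falls (-0.38 ± 0.08 and -0.31 ± 0.08, or -0.22 ± 0.08 and -0.50 ± 0.07 with the same library sum), but all 4 day-20 libraries stayed above every day-2 library, at a log2 change of 2.10 ± 0.07 from day 0.

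Smarcc1, encoding BAF155, had a day-0 range of 100.3 to 112 FPKM with a median of 108. At day 2 it stood at 79.2, 88.0 and 78.7 FPKM and at day 4 at 92.6, 95.7 and 96.7. It was the only member to fall and then rise again in the first 4 days while staying below day 0 (-0.37 ± 0.04, then 0.21 ± 0.05, adjusted p = 5.36e-08 and 0.000663). The rise was 0.50 ± 0.06 with the same library sum. The difference between days 4 and 0 was -0.16 ± 0.04 (adjusted p = 0.00127), -0.02 ± 0.04 with quantile normalization and 0.11 ± 0.05 (adjusted p = 0.0486) with libraries rescaled to the same sum, so its direction depends on the scaling. By day 10 the libraries had fallen to 32.9, 30.2, 32.5, 32.0 and 31.0 FPKM (-1.55 ± 0.04 from day 4, adjusted p = 5.47e-18), and at day 20 they stood at 29.8, 31.3, 32.2 and 30.5, overlapping day 10. Smarcc2 made up 11.2% ± 1.55 of the summed FPKM of the 2 genes in stem cells, then 24.2% ± 1.33 on day 2, 50.8% ± 0.980 on day 4, 70.3% ± 1.05 on day 10 and 66.1% ± 2.38 on day 20. The sum stood at 193 ± 1.38 FPKM at day 4, against 120 ± 3.08 at day 0 and 107 ± 2.77 at day 10, so on day 4 high Smarcc1 and high Smarcc2 were found together.

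**Figure D2:**
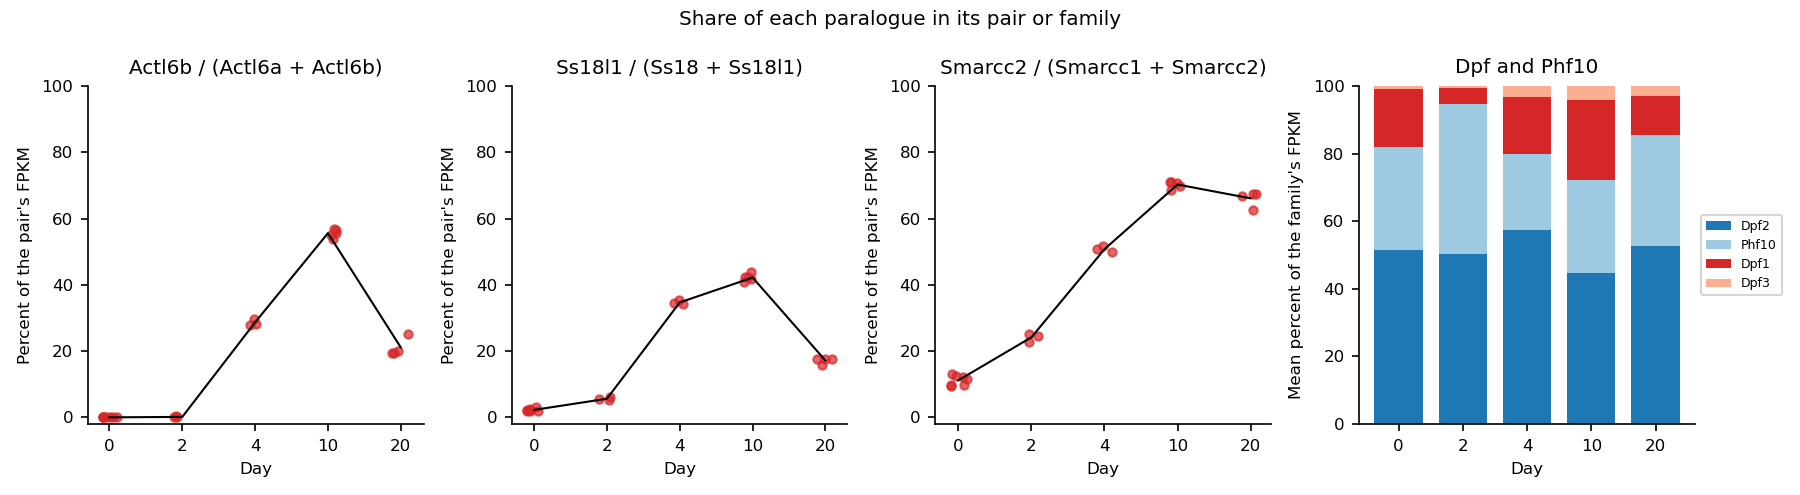
Percent of the summed FPKM (y axis) of the neuronal or late paralogue in each pair, by library (red points, black line through day means), and the mean composition of the Dpf and Phf10 family (stacked bars, right), against day (x axis, categories not to scale). Actl6b and Ss18l1 peak at day 10, at 55.6% and 42.2%, and are at 21.1% and 17.2% at day 20, whereas Smarcc2 is at 70.3% and 66.1%.

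The double PHD finger subunits, which read modified histone tails, did not move as 2 opposed groups. Dpf1, a neuronal form, was already present in stem cells, from 21.2 to 29.1 FPKM with a median of 25.5, and fell to 6.23, 6.71 and 9.19 at day 2 (-1.68 ± 0.11, adjusted p = 7.19e-12). It was the member with the largest fall in that step. It rose to 40.6, 44.7 and 37.5 FPKM at day 4 (2.34 ± 0.13 from day 2, adjusted p = 5.11e-13) and stood at 31.9, 33.4, 30.8, 34.1 and 33.5 at day 10. At day 20 the libraries were at 11.6, 13.9, 9.98 and 10.5 FPKM, above all those of day 2 and below all those of the other days. Against day 0 the gain at day 4 was 0.65 ± 0.11 and at day 10 0.34 ± 0.09, the latter not called against day-0 replicates 1 to 3 alone (0.17 ± 0.10, adjusted p = 0.112) and 0.77 ± 0.10 with the same library sum. The step from day 4 to day 10, -0.31 ± 0.12 (adjusted p = 0.0199), was not called without day-4 replicate 2 (-0.25 ± 0.13, adjusted p = 0.103) or with the same library sum (-0.15 ± 0.12, adjusted p = 0.253).

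Dpf3, the other neuronal form, which is also known from heart and muscle, was the least abundant member of its family. Its day-0 libraries ran from 0.77 to 1.88 FPKM with a median of 1.31, and those of day 2 stood at 0.83, 0.69 and 0.74, overlapping them. The difference of -0.32 ± 0.13 (adjusted p = 0.0326) was not called without any 1 of day-0 replicates 5, 6 and 7 and day-2 replicates 1, 2 and 3 (adjusted p from 0.0504 to 0.0987), and was -0.06 ± 0.11 against day-0 replicates 1 to 3 alone, -0.51 ± 0.11 against replicates 4 to 7 and -0.64 ± 0.13 after quantile normalization. At day 4 it stood at 6.69, 8.17 and 7.60 FPKM, at day 10 at 6.05, 5.68, 6.25, 5.85 and 5.48 and at day 20 at 3.26, 2.09, 3.72 and 2.86. The rise from day 2 to day 4 was 2.27 ± 0.15 (adjusted p = 1.68e-11) and the fall from day 10 to day 20 -0.80 ± 0.13 (adjusted p = 7.3e-06). Days 4 and 10 did not overlap but the difference was not called (-0.30 ± 0.14, adjusted p = 0.0528). It was called without day-0 replicate 2, 3 or 5, day-4 replicate 1 or day-20 replicate 2 or 3 (adjusted p from 0.0305 to 0.045). At day 20 Dpf3 was above day 0 by 0.85 ± 0.12, but after quantile normalization it was below by 0.35, a value of -0.35 ± 0.11 (adjusted p = 0.00735).

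The partners that are exchanged in neurons, Dpf2 and Phf10, were called higher at day 4 than at day 0 (0.84 ± 0.08 and 0.25 ± 0.06). For Phf10 that difference was 0.52 ± 0.07 with libraries rescaled to the same sum and 0.13 ± 0.04 against day-0 replicates 1 to 3 alone. Dpf2, also known as requiem, ran from 66.2 to 85.4 FPKM at day 0, with a median of 79.0, and stood at 68.0, 83.6 and 84.2 at day 2. The groups overlapped and the difference of 0.04 ± 0.08 was not called (adjusted p = 0.703). It was called higher against day-0 replicates 1 to 3 alone (0.18 ± 0.07, adjusted p = 0.0296) and stood at -0.08 ± 0.07 against replicates 4 to 7. At day 4 Dpf2 rose to 128, 141 and 144 FPKM (0.81 ± 0.09 from day 2, adjusted p = 8.52e-08), the highest level of any member on any day. It fell to 63.1, 61.1, 65.4, 61.1 and 61.2 FPKM at day 10 (-1.13 ± 0.08, adjusted p = 5.79e-11) and to 57.3, 49.1, 51.3 and 55.2 at day 20.

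Phf10, which encodes the progenitor form BAF45A, was the only member to peak at day 2. Its day-0 libraries ran from 40.6 to 49.4 FPKM with a median of 43.3, and all 3 day-2 libraries were above them at 68.4, 68.2 and 70.9 (0.61 ± 0.06, adjusted p = 3.72e-09). It then fell at every step, to 53.7, 55.3 and 52.1 FPKM at day 4, to 37.7, 37.4, 39.2, 36.8 and 40.6 at day 10 and to 31.8, 32.5, 33.0 and 35.5 at day 20. The step from day 2 to day 4, -0.36 ± 0.07 (adjusted p = 7.78e-05), was not called with libraries rescaled to the same sum (-0.07 ± 0.08, adjusted p = 0.449), and that from day 4 to day 10 was then -0.32 ± 0.07 in place of -0.48 ± 0.06, that from day 10 to day 20 -0.39 ± 0.07 in place of -0.20 ± 0.06. For Phf10 and Dpf2 the comparison of day 10 with day 0 depends on the scaling, -0.22 ± 0.05 and -0.29 ± 0.07 as deposited and 0.21 ± 0.06 and 0.15 ± 0.06 with libraries rescaled to the same sum. Of the summed FPKM of the 4 genes, Dpf1 made up 17.3% ± 2.32, 4.71% ± 0.748, 17.1% ± 1.33, 23.5% ± 1.18 and 11.4% ± 1.92 at days 0, 2, 4, 10 and 20. Dpf3 made up 0.816% ± 0.264 at day 0 and 4.21% ± 0.208 at day 10, and Dpf2 was the most abundant of the 4 on each day by mean share, from 44.8% at day 10 to 57.4% at day 4.

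Ordered by mean level, the days ran 0, 2, 4, 10, 20 for Actl6a and 0, 2, 4, 20, 10 for Ss18, from highest to lowest. For Actl6b and Ss18l1 the order was 10, 4, 20, 2, 0, and for Smarcc2 4, 10, 20, 2, 0. Dpf1 ran 4, 10, 0, 20, 2, Dpf3 4, 10, 20, 0, 2, Dpf2 4, 2, 0, 10, 20, Phf10 2, 4, 0, 10, 20 and Smarcc1 0, 4, 2, 10, 20. The neighbours in these orders that were not called different were days 10 and 20 for Actl6a and Smarcc1, days 4 and 20 for Ss18, days 2 and 0 for Actl6b and Dpf2, and days 4 and 10 for Dpf3. The members fell by level into those above 20 FPKM in every library (Actl6a, Dpf2, Phf10, Ss18 and Smarcc1) and those that reached under 15 FPKM on some day (Actl6b, Dpf1, Dpf3, Ss18l1 and Smarcc2).

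Counted over the 10 members, day 2 against day 0 called 3 higher and 5 lower, where 42.0% of all genes tested were called higher and 32.1% lower. Libraries did not overlap in 7 members and in 65.4% of all genes. At day 4 against day 0, 7 members were called higher and 3 lower (47.0% and 35.5% of all genes), at day 10 5 and 5 (54.1% and 36.4%) and at day 20 4 and 6 (55.3% and 35.5%). All 10 members had separate ranges in each of these 3 comparisons, as had 75.9%, 82.2% and 81.9% of all genes. The members' median change was -0.12, 0.75, 0.06 and -0.47 in these 4 comparisons, and that of all genes 0.07, 0.12, 0.28 and 0.38. These 4 comparisons share their day-0 libraries. By step, 7 members were called higher and 3 lower from day 2 to day 4 (38.0% and 34.0% of all genes), 2 and 7 from day 4 to day 10 (41.4% and 32.3%), and 1 and 7 from day 10 to day 20 (37.2% and 38.1%). Ranges were separate in 10, 10 and 8 members and in 78.1%, 76.5% and 69.1% of all genes. In the comparison of day 20 with day 4, used to order the days, 9 members were called lower, as were 38.5% of all genes. From day 2 to day 4, 5 members rose by 2-fold or more, Actl6b, Dpf1, Dpf3, Ss18l1 and Smarcc2, against 13.5% of all genes. Most of the genes tested were called in each of these comparisons, so being called says little about a member. Rescaling changed the balance of all genes: at day 10 against day 0, 59.8% of the calls were higher as deposited, 48.8% after quantile normalization and 70.7% with libraries rescaled to the same sum.

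Of 21 other BAF subunits, 12 were called higher and 5 lower at day 2 against day 0 (42.0% and 32.1% of all genes). At day 4 they were 17 and 3 (47.0% and 35.5%), and at day 10 12 and 8 (54.1% and 36.4%). At day 20 they were 9 and 8 (55.3% and 35.5%). Their medians were 0.24, 0.77, 0.36 and 0.03. Like the members, they stood highest at day 4 against day 0 by median. The ATPase position, filled by either of 2 enzymes, changed in level too. Smarca2, encoding BRM, rose from 3.42 ± 1.11 FPKM at day 0 to 34.4 ± 0.749 at day 2, 62.3 ± 2.30 at day 10 and 87.7 ± 7.92 at day 20 (4.37 ± 0.14 at day 20 against day 0). Smarca4, encoding the partner BRG1, stood at 55.9 ± 1.36 FPKM at day 0, 116 ± 2.24 at day 4 and 46.1 ± 1.96 at day 20 (-0.27 ± 0.03). Smarca2 was below Smarca4 by mean through day 4 and above it at day 20. At day 10 Smarca4 stood at 63.7 ± 2.33 FPKM, and the ranges of the 2 genes overlapped.

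Smarcd3, encoding BAF60C, rose from 3.42 ± 0.517 to 35.3 ± 1.95 FPKM at day 10 (3.04 ± 0.07). Bcl7a rose from 5.39 ± 0.972 FPKM at day 0 to 53.6 ± 0.856 at day 4 and stood at 10.9 ± 1.15 at day 20. Bcl11a and Bcl11b, zinc finger proteins known as BAF subunits of neurons and lymphocytes, were also under 1 FPKM through day 2 and higher from day 4 on. Bcl11a stood at 0.431 ± 0.115, 0.157 ± 0.0551, 18.6 ± 0.479, 13.0 ± 0.400 and 1.75 ± 0.252 FPKM at days 0, 2, 4, 10 and 20, and Bcl11b at 0.256 ± 0.0925, 0.147 ± 0.0306, 4.46 ± 0.335, 5.03 ± 0.588 and 1.12 ± 0.274. Among the ARID subunits, Arid1a changed by -1.16 ± 0.04 and Arid1b by 1.17 ± 0.05 at day 10 against day 0. Bicral, of the non-canonical complex, was lower in all 4 comparisons with day 0 (-1.81 ± 0.10 at day 2), and Bicra higher (1.09 ± 0.07 at day 2). Of 24 genes of other ATP-dependent remodellers, such as the CHD and ISWI families, 9 were called higher and 14 lower at day 4 against day 0 and 2 higher and 18 lower at day 20, with medians of -0.22 and -0.71.

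**Figure D3:**
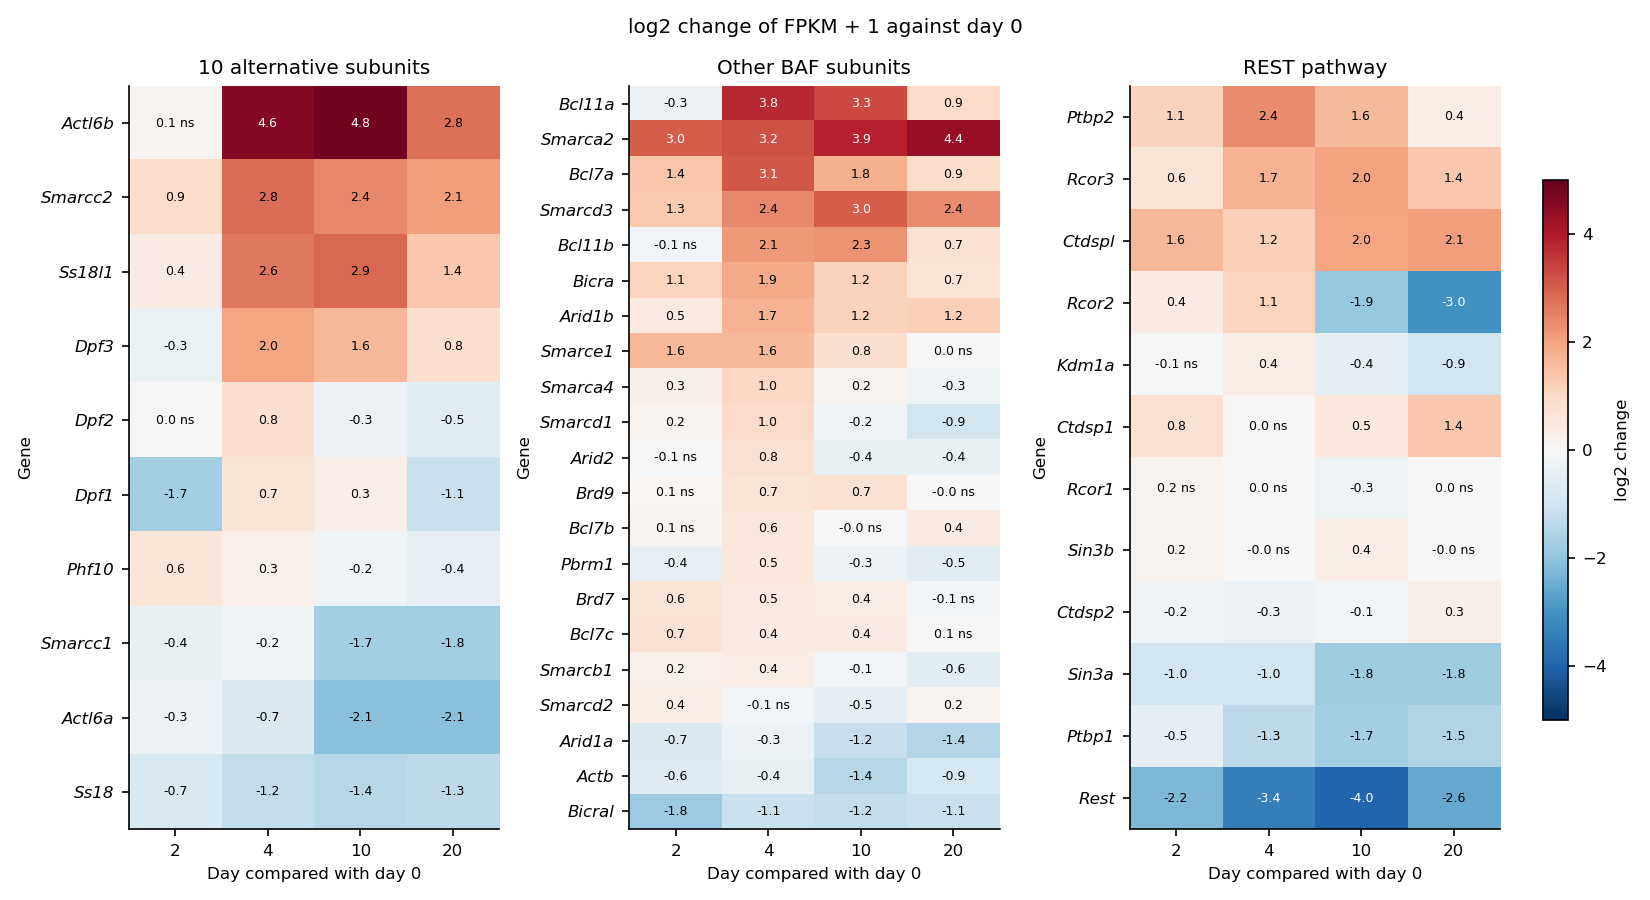
log2 change of FPKM + 1 (colour and number in each cell) at days 2, 4, 10 and 20 against day 0 (columns) for the 10 members, 21 other BAF subunits and 12 genes of the REST pathway (rows, ordered by the day-4 change); ns marks changes with an adjusted p of 0.05 or more, the colour scale ends at 5 and the 4 columns share their day-0 libraries. Actl6b (4.60), Bcl11a (3.78), Smarca2 (3.20) and Bcl7a (3.11) lie at the red end at day 4, and Rest (-3.41) at the blue end.

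Rest, the repressor gene, ran opposite to Actl6b in the order of the days. It stood at 72.6 to 83.0 FPKM at day 0 with a median of 75.4, at 15.5 to 15.9 at day 2 and at 6.15 to 6.64 at day 4. On day 10 it was at 3.76 to 4.23 FPKM and by day 20 at 11.4 to 12.6. No 2 days overlapped: Rest was highest at day 0 and lowest at day 10, where Actl6b and Ss18l1 were highest, and it rose from day 10 to day 20 (1.40 ± 0.05, adjusted p = 1.78e-16), the step in which Actl6b and Ss18l1 fell. At day 2 Rest had changed by -2.23 ± 0.05 from day 0, and Actl6b stood at 0.03 to 0.24 FPKM. Whether REST bound the RE1-like letters of the Actl6b window was not measured. The part of Rest in the changes of Actl6b and Ss18l1 was not tested. Of the 12 genes listed for the REST pathway, 5 were called higher and 4 lower at day 4 against day 0 (47.0% and 35.5% of all genes). At day 10 they were 5 and 7 (54.1% and 36.4%). Rcor2, a REST corepressor of progenitors, rose from 61.2 ± 5.11 FPKM at day 0 to 133 ± 6.27 at day 4 and fell to 15.8 ± 1.09 at day 10. The splicing repressor Ptbp1 fell from 328 ± 8.24 to 100.2 ± 4.24 FPKM between days 0 and 10, and its neural partner Ptbp2 stood at 22.1 ± 2.79 FPKM at day 0, 118 ± 6.45 at day 4 and 29.0 ± 3.31 at day 20.

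**Figure D4:**
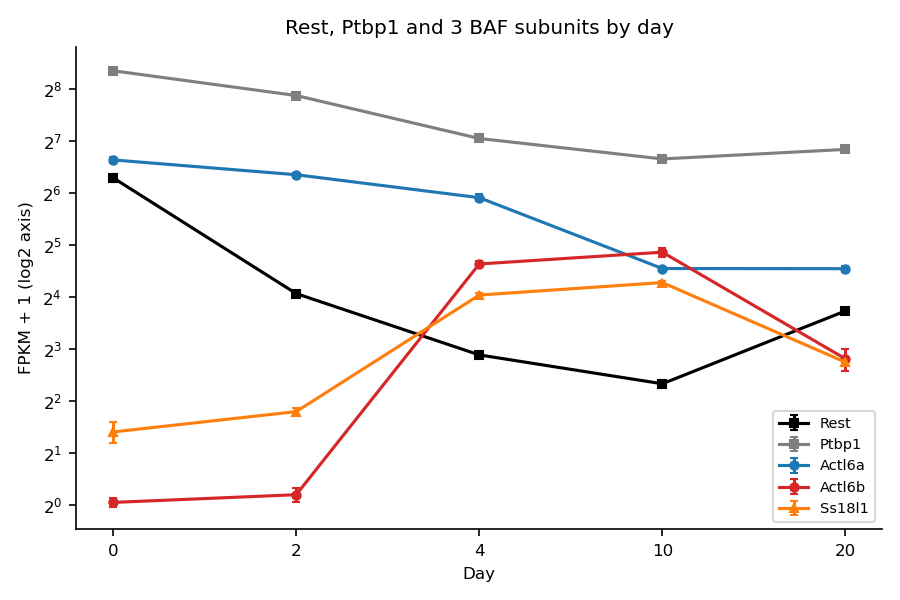
Mean FPKM + 1 (y axis, log2 scale) with SD bars of Rest, Ptbp1, Actl6a, Actl6b and Ss18l1, against day (x axis, categories not to scale; n = 7, 3, 3, 5 and 4 libraries). Rest falls to 3.76 to 4.23 FPKM at day 10 and is at 11.4 to 12.6 at day 20, while Actl6b is at 25.5 to 29.9 and then 5.40 to 7.52.

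Among the members themselves the correlation of log2(FPKM + 1) over the 22 libraries, which share 5 days and so are not independent points, was 0.987 between Actl6b and Ss18l1, 0.958 between Actl6b and Dpf3 and 0.942 between Actl6b and Smarcc2. It was 0.977 between Actl6a and Smarcc1, -0.783 between Actl6a and Actl6b and -0.963 between Ss18 and Smarcc2. Dpf1 stood apart, at 0.462 with Actl6b and -0.004 with Actl6a. Of all genes tested, those most like Actl6b were Pcdhb3 (0.997), Frmpd3 (0.997) and Lin7a (0.997), the last encoding a synaptic scaffold protein. Those most like Ss18l1 were Ajap1 (0.993), Bsn (0.993), which encodes the presynaptic protein Bassoon, and Nova1 (0.992), a neuronal splicing factor. For Dpf3 they were Sobp (0.986), Robo1 (0.982) and Gm5113 (0.981), and for Smarcc2 Gdpd1 (0.995), Trim35 (0.994) and Celsr2 (0.994).

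The falling members had other company. Actl6a was most like Apex1 (0.998), Supt16 (0.996) and Mcm7 (0.996), genes of DNA repair, chromatin transcription and replication, and Smarcc1 was most like Racgap1 (0.991), Fam60a (0.990) and E2f1 (0.989). The cell cycle markers also fell, 10 of 10 at day 4 and at day 10 against day 0 (35.5% and 36.4% of all genes were called lower). From day 2 to day 4 all 10 were called lower (34.0% of all genes). In that step Smarcc1 was called higher, and the mean of Racgap1 went from 67.8 to 86.2 FPKM. The part of dividing cells in the falls of Actl6a and Smarcc1 was not tested. Ss18 was most like Slc29a1 (0.995), Dnmt3l (0.994) and Foxh1 (0.994), the last 2 being genes of early embryonic cells. Phf10 was most like Ssrp1 (0.976), Dnajc9 (0.974) and 4933402E13Rik (0.971), Dpf2 like Nes (0.960), Zfp516 (0.959) and Foxn4 (0.951), and Dpf1 like Tmem57 (0.945) and Armc8 (0.940). Dpf1 thus had the lowest best match of the 10. Nes, nearest to Dpf2, encodes nestin, a filament protein of neural progenitors.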

How the data were processed

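RNA from 22 libraries of R1 cells was analysed as deposited, in 1 table with a column per library; per the submitters' processing notes, RSEM (no version given) and the mm9 build were used. The unit was taken as FPKM from the deposited values, since column sums differed. No source names a trimmer or an annotation. The ATAC-seq table was not used here, because no mm9 annotation was at hand. Each library took the day in its title.

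log2(FPKM + 1) was fitted with limma 3.58.1 in R 4.3.3, as a mean per day across the 22 libraries, with a trended empirical Bayes prior and 17 residual degrees of freedom. Genes with 1 FPKM in at least 3 libraries were kept. Calls are at a Benjamini-Hochberg adjusted p under 0.05 over 14982 genes, 2-sided, in 7 comparisons, with 3 further pairs of days added to order the levels. In simulated data for day 4 against day 0 (14982 genes), 99% of 2-fold and 83% of 1.5-fold changes were recovered, with 5 false calls. Only 100 genes were changed at each fold, all above 1 FPKM at day 0, whereas most genes were called in the real data. These rates therefore do not cover genes near 0, such as Actl6b, and may not carry over to the others. Named genes were the members, genes of the lists called with a 2-fold change against day 0, and the 3 genes best correlated with each member, of which 1 is not reported here. Members, lists, day-0 sets and motifs were chosen with earlier results of these data known. RefSeq windows (GRCm38.p6) were matched by symbol for 9 of 10 members; Ss18 is not shown.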

Additional observations from a re-analysis of the deposited data

Results flagged for a closer look

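Values of each member in the groups of 4 to 7 libraries were examined for a library lying apart from the rest by Dixon's test, which chance passes in about 1 of 20 groups, and 2 of 30 did so, both for Actl6b. Day-0 replicate 1 had 0.17 FPKM, where the other 6 libraries had 0 to 0.03. Day-20 replicate 1 had 7.52 FPKM, where the other 3 had 5.40 to 5.70.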

How the results depend on the processing

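Of 2320 values of the 70 member changes under 34 other settings, 2263 kept direction and call. These settings included leaving out each RNA library in turn. Where that library was of neither day compared, the log2 change could not move, so part of this agreement was fixed in advance. Dpf2 at day 2 against day 0 turned to -0.0766 against stem-cell replicates 4 to 7 alone and ran from -0.0169 to 0.135 with single libraries left out. Actl6a between days 10 and 20 ran from -0.028 to 0.0169 in the same way. With libraries rescaled to the same sum, Smarcc1 at day 4 turned to 0.11, Dpf2 and Phf10 at day 10 to 0.15 and 0.21, and Ss18 from day 10 to day 20 to -0.0649; with quantile normalization Dpf3 at day 20 turned to -0.35. Members called lower at day 10 against day 0 numbered 3 with the same sum, not 5. Members called higher from day 4 to day 10 numbered 2, but 0 with a pseudocount of 0.1 or 0.01, 1 with quantile normalization and 0 to 2 with single libraries left out; from day 10 to day 20 the 1 (Ss18) became 0 with quantile normalization and with the same sum, and 0 to 1 with single libraries left out. Apart from the settings' construction, the cause was not tested. The median of all genes at day 10 against day 0 was 0.28 as deposited, -0.02 after quantile normalization and 0.62 with the same sum. Libraries sharing a replicate number showed no common deviation (34 pairs, median r 0.0018, from -0.146 to 0.219). For different numbers the median was 0.001 (154 pairs, from -0.357 to 0.295). With so few libraries per day this cannot exclude that numbers mark shared cultures, and the main fit left libraries unpaired. With the replicate block, Dpf3 at day 2 (-0.19, adjusted p = 0.245) and Dpf1 from day 4 to day 10 (-0.25, 0.0849) lost their limma calls. Dpf3 from day 4 to day 10 gained one (-0.37, 0.0283). Openness at the members' start sites was not run. Depth in reads is unknown, which limits Actl6b, near 0 before day 4.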
